A study of Mus musculus with 28 samples.

Results

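The genes described here encode the subunits of the mitochondrial respiratory chain and of ATP synthase that are carried by the nuclear genome. They were chosen by gene symbol alone, as those of complex I (Nduf followed by a, b, c, s or v and a number), complex II (Sdha to Sdhd), complex III (Uqcr genes and Cyc1), cytochrome c (Cycs), complex IV (Cox4 to Cox8 genes) and complex V (Atp5 genes). The array listed 80 such genes, of which 74 had a probe detected (p under 0.01 against negative controls) on 3 or more arrays. These 74 members were 0.696% of the 10630 genes tested. They comprised 33 subunits of complex I, 3 of complex II, 8 of complex III, cytochrome c, 13 of complex IV and 16 of complex V, and 66 of them were detected on all 25 arrays.

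Complexes I and II feed electrons from NADH and succinate to ubiquinone, complex III passes them on to cytochrome c, and complex IV, cytochrome c oxidase, hands them to oxygen. Complexes I, III and IV pump protons out of the matrix, and ATP synthase (complex V) uses the return of the protons to make ATP. Microglia, the resident macrophages of the brain, descend from yolk-sac macrophages that enter the neural tube in mid-gestation, and they multiply in the embryo before they mature after birth.

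Transcripts were measured on Illumina WG-6 version 2 arrays in macrophages of the yolk sac at E10.5 (YSM, 4 arrays) and in brain microglia, with 3 arrays per stage. The stages of microglia were E10.5, E12.5 and E14.5, then E16.5 and E18.5, newborns (P0) and adults aged 2 months. All mice were labelled C56BL/6, where the study's methods write C57BL/6j, with no transgene or treatment given. Each array held RNA of cells pooled from several animals of either sex, so p-values measure the spread between pools. Cells were sorted as CD45low and Ly6C- and positive for CD11b, F4/80 and CD64. Adult cells were also enriched on Percoll, and digestion was longer for P0 and adult brains, so these steps and age cannot be told apart. Of 6 adult columns, 3 repeated another column in every probe and were counted once. Microglial markers including Csf1r, Cx3cr1, Aif1, Fcrls and Trem2 were detected on all 25 arrays.

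Between 13224 and 17937 probes were detected per array, fewest on YSM replicate 4. Background was 63.9 to 73.4 on YSM arrays and 108 to 155 on the others, so array background and tissue cannot be told apart. The ratio of the 75th percentile signal to background was 1.40 to 2.43 in YSM, lowest on YSM replicate 4. In microglia it was 1.68 to 2.02 from E10.5 to E14.5, 2.64 to 3.48 from E16.5 to P0 and 2.11 to 2.29 in adult. The part of these differences in brightness in the results was not tested. Levels below are log2 of the background-corrected, quantile-normalized signal, and a change is the later minus the earlier mean with its standard error (SE) after ±. A gene was called (rose, fell) where limma's Benjamini-Hochberg adjusted p, taken over all 10630 genes, was under 0.05. Neighbouring comparisons share arrays. In these bulk samples fewer cells of a type and less RNA per cell cannot be told apart.

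The transcripts of the respiratory chain were highest in YSM and E10.5 microglia, declined through the embryo and were lowest in adult microglia. The highest group mean lay in YSM for 36 members (25.5% of all genes) and at E10.5 for 29 (14.7% of all genes), and the lowest lay in adult for 67 (29.6% of all genes). The moderated F test over the 8 groups called 74 of 74 members, against 90.97% of all genes. On each array the median deviation of the members from their own means was taken. It averaged 0.49 ± 0.04 (SD, n = 4) in YSM, 0.47 ± 0.03 (SD, n = 3) at E10.5 and 0.21 ± 0.04 (SD, n = 3) at E12.5. Values were 0.08 ± 0.04 at E14.5, -0.11 ± 0.15 at E16.5, -0.18 ± 0.06 at E18.5 and -0.13 ± 0.03 at P0 (SD, n = 3 each). In adult it was -0.84 ± 0.22 (SD, n = 3), and the adult arrays, between -1.10 and -0.68, lay below all others.

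**Figure D1:**
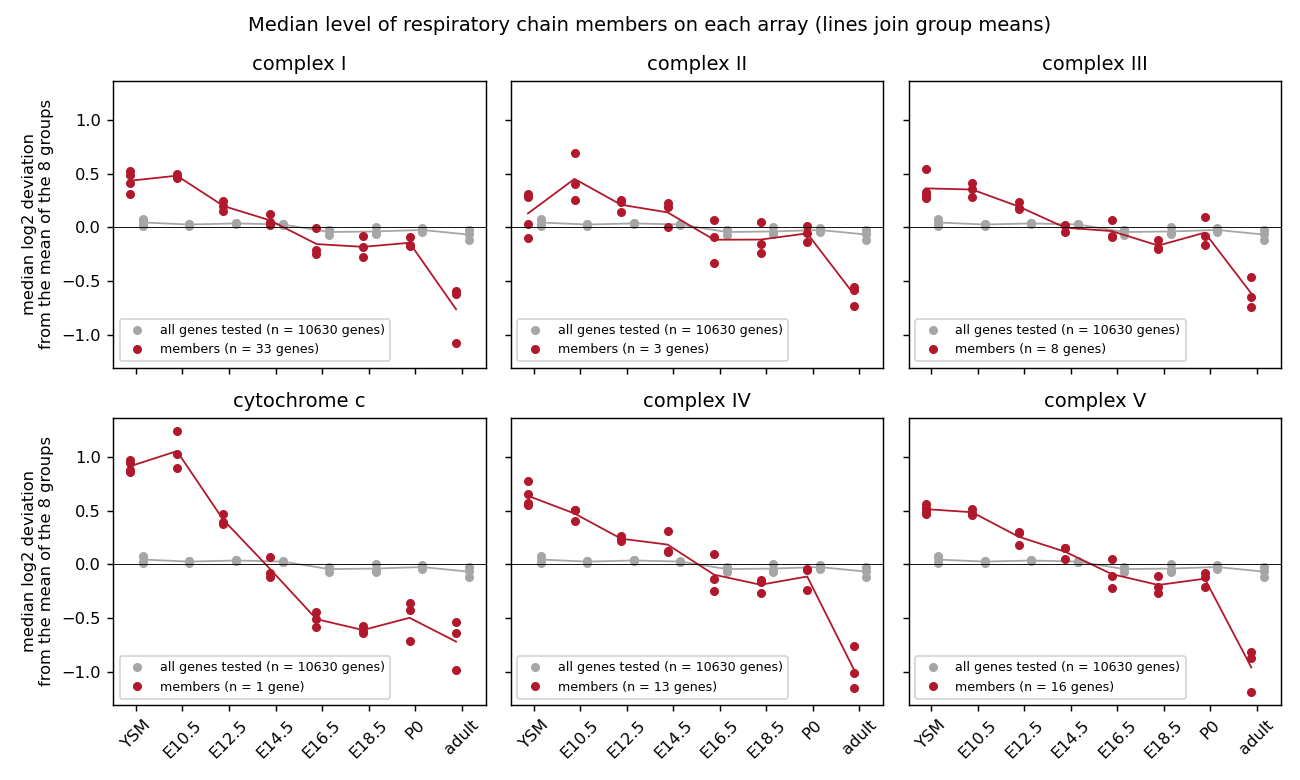
Median log2 deviation of the members from their mean over the 8 groups (y axis) on each array (points), by group (x axis) and complex (panels), with lines through the group means and all 10630 genes tested in grey. Members of every complex sat above the grey points at E10.5 and below them in adult, where the median over all 74 members averaged -0.84.

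Among the members themselves the size of the swing differed. The median range between the highest and the lowest group mean was 1.51 log2 units over the members and 1.36 over all genes. It was 0.93 in complex II, 1.34 in complex I, 1.53 in complex V, 1.57 in complex III and 1.81 in complex IV, and 1.77 for Cycs. The map of group means shows the shared decline and the few rows that ran against it, which were Cox6a2, Cox7a2l, Uqcrq and Uqcrfs1.

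**Figure D2:**
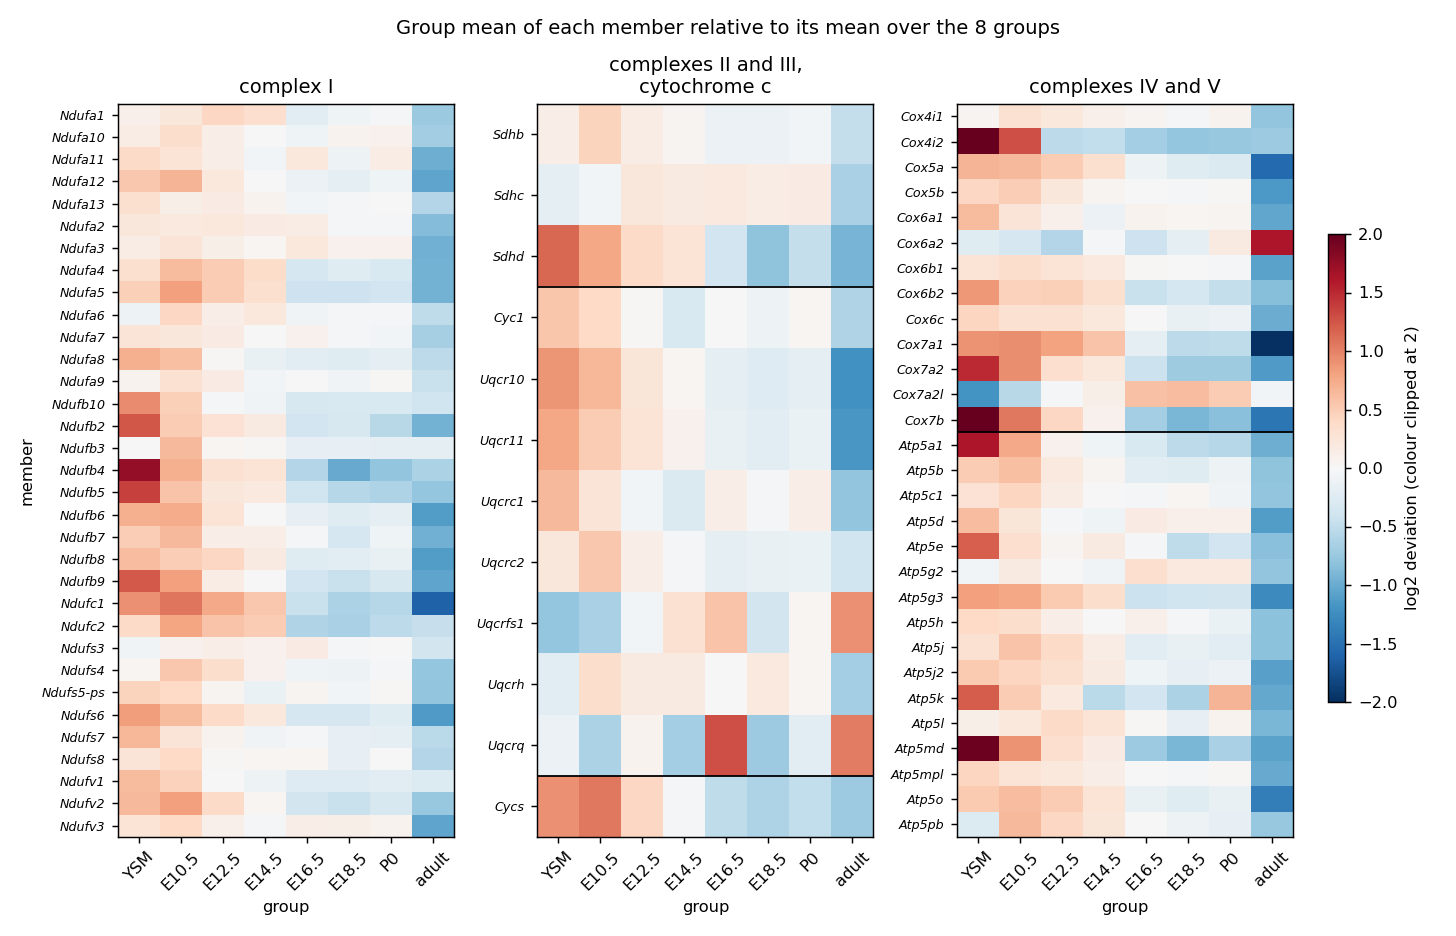
Group mean of each of the 74 members (rows) as a log2 deviation from its mean over the 8 groups (columns), coloured from -2 (blue) to 2 (red), with the complexes in separate blocks. Most rows turn from red at E10.5 to blue in adult, whereas Cox6a2, Uqcrq and Uqcrfs1 are red in adult.

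Comparing the ends of the brain series, adult with E10.5 microglia, 70 members fell and 4 rose, so that every member was called. All genes gave 35.6% lower and 30.6% higher. The median change was -1.31 over the members and -0.09 over all genes. Taken by complex, the medians were -1.25 for complex I, -0.93 for complex II, -1.01 for complex III, -1.77 for Cycs, -1.42 for complex IV and -1.39 for complex V. With the members detected on all arrays alone, a choice made after seeing the data, the median was -1.27. Called lower were 33 of 33 members of complex I, 3 of 3 of complex II, 6 of 8 of complex III, 11 of 13 of complex IV and 16 of 16 of complex V.

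The median member change was negative in each step from E10.5 to E16.5. The count of called members differed between these steps, as it did for all genes. From E10.5 to E12.5, 20 members fell and 1 rose (all genes 16.2% lower and 14.46% higher), with a median of -0.25 against -0.01 over all genes. No member was called from E12.5 to E14.5 by limma (all genes 0.508% lower and 0.875% higher). In that step the unadjusted p was under 0.05 for 4 members that were lower and 1 that was higher, and 67 of 74 had a negative change, with a median of -0.15. On the arrays the median deviation of all genes averaged 0.04 at E12.5 and 0.03 at E14.5. From E14.5 to E16.5, 18 fell and 4 rose (all genes 19.95% lower and 12.9% higher), with a median of -0.18 against -0.08. The share of members lower in that step (24.3%) was near that of all genes.

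Little moved around birth. From E16.5 to E18.5, 1 member fell, Uqcrq (all genes 0.950% lower and 1.37% higher), with an unadjusted p under 0.05 for 5 lower. From E18.5 to P0, 1 rose, Atp5k (all genes 0.0470% higher and 0.00941% lower), with an unadjusted p under 0.05 for 2 higher. Between P0 and adult, 55 members fell and 3 rose (all genes 26.9% lower and 24.2% higher), with a median of -0.69 against -0.03 over all genes. YSM and E10.5 microglia differed in both directions, with 15 members lower and 7 higher in the brain (all genes 9.51% lower and 10.05% higher) and a median of -0.03, the same as over all genes.

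**Figure D3:**
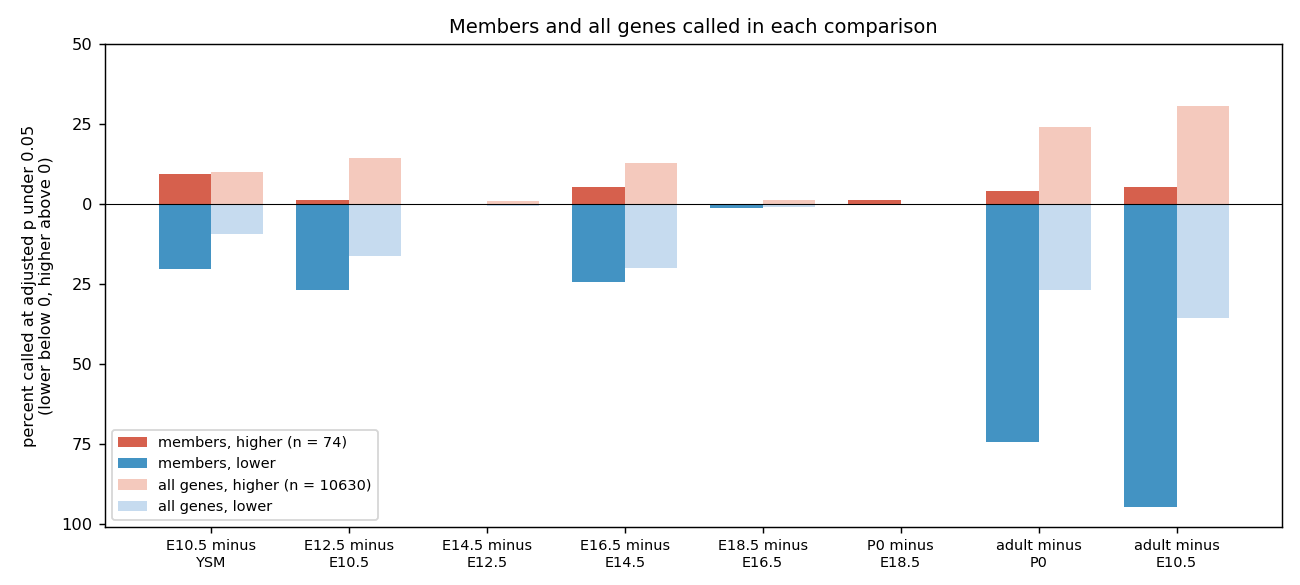
Percentage of the 74 members (dark bars) and of all 10630 genes (pale bars) called higher (above 0) or lower (below 0) at an adjusted p under 0.05 in each comparison. Members called lower stand furthest beyond the pale bars in adult against P0 (55 of 74) and adult against E10.5 (70 of 74).

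Several of these counts depended on scaling or on 1 array. With arrays scaled to their 75th percentile in place of quantiles, 48 members fell and 0 rose at E12.5, and 39 fell and 1 rose at E16.5. Under that scaling the median of all genes was itself -0.18 and -0.29 in these steps, against member medians of -0.57 and -0.51. For adult against P0 it gave 40 lower and 3 higher, with medians of -0.49 for members and 0.11 for all genes, and for adult against E10.5 it gave 70 lower and 3 higher, with medians of -1.75 and -0.38. The count at E12.5 was 13 without E10.5 replicate 2. The count at E16.5 was 11 without E16.5 replicate 1 and 13 without E14.5 replicate 2, that at E10.5 against YSM was 12 without E10.5 replicate 1, and 2 members were called at E18.5 without E16.5 replicate 3 or without E18.5 replicate 3.

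Markers of other cells moved in the same steps. For the counts below, all genes gave 14.46% higher and 16.2% lower at E12.5, and 12.9% higher and 19.95% lower at E16.5. They gave 24.2% higher and 26.9% lower from P0 to adult, and 30.6% higher and 35.6% lower from E10.5 to adult. The mean level of 8 border macrophage genes was 11.99 to 13.48 on P0 arrays and 5.94 to 6.60 on adult arrays, and all 8 fell. Lyve1, Folr2 and Cd163 were undetected in adult, whereas Mrc1 and Ms4a7 were detected on all 3 adult arrays. Pf4 and Cbr2 were detected on 2 adult arrays and F13a1 on 1. The mean of 7 neuronal and progenitor genes was 8.35 to 9.20 at P0 and 5.43 to 5.53 in adult, and 6 of 7 fell. Between E10.5 and E12.5, 7 of 8 border macrophage genes rose, from 9.39 to 10.02 on the earlier arrays to 11.92 to 12.17 on the later ones. The 8 measured neutrophil and early myeloid genes averaged 7.99 to 9.26 at E10.5 and 5.19 to 8.13 at E12.5, and 4 of them fell. The 7 neuronal and progenitor genes averaged 6.10 to 6.37 at E10.5 and 6.95 to 8.60 at E12.5, and 4 rose. The 9 immediate early genes respond within minutes to stimuli such as tissue dissociation. They averaged 9.86 to 10.47 at E10.5 and 11.12 to 12.02 at E12.5, and 4 rose. Between E14.5 and E16.5 they went from 9.93 to 11.21 to 11.92 to 12.30, and 3 rose, and from P0 to adult 3 rose. The part of these markers in the members' changes was not tested. From E10.5 to adult 6 of 8 border macrophage genes fell (list means 5.94 to 6.60 against 9.39 to 10.02), as did 5 of 8 neutrophil and early myeloid genes (4.90 to 5.04 against 7.99 to 9.26). Of 7 neuronal and progenitor genes 3 fell and 1 rose (5.43 to 5.53 against 6.10 to 6.37), of 7 erythroid genes 4 fell and 2 rose, and of 9 immediate early genes 5 rose and 0 fell. Of 13 microglia identity genes 13 rose from E10.5 to adult (median 2.49), 9 at E12.5, 9 at E16.5 and 7 from P0 to adult. From P0 to adult 3 of 4 endothelial genes fell and 1 rose, and of 7 erythroid genes 1 fell and 1 rose. In the same step 4 of 6 astrocyte and oligodendrocyte genes fell and 2 rose (list means 8.13 to 8.26 at P0 and 7.06 to 7.43 in adult). From E10.5 to adult 0 of these 6 fell and 2 rose. The part of these lists was likewise not tested.

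Nuclear genes of the respiratory chain are known to share binding sites for NRF1, for GABP and other ETS factors, and for YY1. Promoters (250 bases before to 50 after the annotated start, RefSeq, GRCm38.p6) were found for 61 of the 74 members and were searched on both strands. The NRF1 letters GCGCATGC were present in 11 (18%), against 6.02% of 8640 tested genes and 3.05% of 27025 genes in all. The ETS letters CCGGAAG were present in 16 (26.2%), against 20.1% of tested and 9.93% of all genes. The YY1 letters AAGATGGC were present in 10 (16.4%), against 5.34% and 3.19%. At least 1 of the 3 was present in 31 (50.8%), against 28.4% of tested genes and 14.9% of all genes. The ETS and YY1 letters can overlap by their shared AAG, and a match is a description of the sequence, not a bound site. Below are 4 promoters, shown because they belong to members that the results turn on: Cycs, which had fallen by E16.5, Ndufc1, which fell most in complex I, and Cox6a1 and Cox7a1, a general and a muscle-type subunit of complex IV. Capitals mark the motif letters, which are NRF1 in Cycs, YY1 in Ndufc1, and NRF1 followed by ETS in Cox6a1, where the run of capitals holds 2 overlapping NRF1 matches on opposite strands. Cox7a1 held none of the 3, which says only that these letters are not in this window. The windows are chr6:50566520-50566819 (minus strand) for Cycs, chr3:51408906-51409205 (minus) for Ndufc1, chr5:115348909-115349208 (minus) for Cox6a1 and chr7:30183921-30184220 (plus) for Cox7a1, each written 5′ to 3′ along its gene.
Cycs: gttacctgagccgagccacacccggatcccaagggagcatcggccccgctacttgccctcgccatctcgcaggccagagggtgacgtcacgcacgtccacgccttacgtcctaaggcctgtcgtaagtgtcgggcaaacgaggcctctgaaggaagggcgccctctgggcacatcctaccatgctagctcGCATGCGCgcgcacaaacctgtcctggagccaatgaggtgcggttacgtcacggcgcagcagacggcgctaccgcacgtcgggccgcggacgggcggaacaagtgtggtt
Ndufc1: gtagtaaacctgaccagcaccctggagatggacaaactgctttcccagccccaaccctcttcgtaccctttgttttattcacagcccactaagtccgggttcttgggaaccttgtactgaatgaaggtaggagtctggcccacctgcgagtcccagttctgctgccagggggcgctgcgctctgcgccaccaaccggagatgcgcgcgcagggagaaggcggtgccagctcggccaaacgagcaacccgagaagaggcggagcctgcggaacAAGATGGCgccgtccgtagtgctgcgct
Cox6a1: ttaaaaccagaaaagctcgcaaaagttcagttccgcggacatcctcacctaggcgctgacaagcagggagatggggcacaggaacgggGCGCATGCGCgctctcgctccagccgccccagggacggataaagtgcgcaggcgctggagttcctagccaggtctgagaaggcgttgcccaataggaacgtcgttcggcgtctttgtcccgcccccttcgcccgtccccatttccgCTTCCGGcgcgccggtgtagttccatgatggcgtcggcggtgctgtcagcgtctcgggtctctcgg
Cox7a1: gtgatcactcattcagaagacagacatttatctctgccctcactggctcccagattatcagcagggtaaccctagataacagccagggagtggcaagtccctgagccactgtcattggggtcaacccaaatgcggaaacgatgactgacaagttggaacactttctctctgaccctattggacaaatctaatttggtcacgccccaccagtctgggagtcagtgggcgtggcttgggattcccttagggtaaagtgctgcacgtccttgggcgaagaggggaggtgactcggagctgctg

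Complex I oxidizes NADH and is the largest of the complexes. All 33 of its members, counted by symbol and so including Ndufa4, were lower in adult than at E10.5. From P0 to adult 26 of 33 fell, with a median of -0.61, and these were 13 of 13 Ndufa, 4 of 9 Ndufb, 1 of 2 Ndufc, 6 of 6 Ndufs and 2 of 3 Ndufv genes. At E12.5 11 of 33 fell and at E16.5 8 of 33 fell, while none rose in either step. Of all genes, 35.6% were called lower from E10.5 to adult, 26.9% from P0 to adult, 16.2% at E12.5 and 19.95% at E16.5. The share of complex I at E16.5 (24.2%) was near the last of these. The member named Ndufs5-ps carries the symbol of a pseudogene, whose probe may share sequence with its parent gene, and is uncertain.

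Ndufc1, an accessory subunit of the membrane arm, had the largest fall in complex I from E10.5 to adult. It lay at 12.20, 12.05 and 12.06 at E10.5, 11.48, 11.65 and 11.60 at E14.5, 10.54, 10.66 and 10.54 at E16.5, 10.47, 10.54 and 10.36 at P0 and 9.64, 9.84 and 8.75 in adult. Every array of a later stage named here was below every array of the earlier ones, E16.5 and P0 only just. The change was -0.99 ± 0.18 from E14.5 to E16.5 (adjusted p = 0.000496), -1.04 ± 0.18 from P0 to adult (adjusted p = 5.54e-05) and -2.69 ± 0.18 from E10.5 to adult (adjusted p = 3.31e-11).

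Its partner Ndufc2 fell at E16.5 only among the neighbouring steps. It read 10.68, 10.88 and 10.92 at E14.5, 9.53, 9.85 and 9.80 at E16.5, 9.79, 10.03 and 9.56 at P0 and 10.17, 10.34 and 9.1 in adult. The E14.5 and E16.5 arrays did not overlap (-1.10 ± 0.22, adjusted p = 0.00108), whereas P0 and adult did (0.07 ± 0.22, adjusted p = 0.816). A second, dim probe of Ndufc2 changed by 0.00 at E16.5, and with the mean of both probes the call was lost (-0.55, adjusted p = 0.0742).

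The smallest swing in complex I belonged to Ndufs3, a core subunit of the peripheral arm. Its E10.5 arrays read 11.13, 11.26 and 11.12, its P0 arrays 11.10, 10.99 and 11.18, and its adult arrays 10.81, 10.91 and 10.43. Adult lay below both groups, by 0.45 on average below E10.5 (-0.45 ± 0.15, adjusted p = 0.010) and by less below P0 (-0.38 ± 0.15, adjusted p = 0.0387). Without adult replicate 3 neither call held (-0.31, adjusted p = 0.0736, and -0.23, adjusted p = 0.201), and the second was also lost without P0 replicate 1 or 3 (adjusted p = 0.0812 and 0.113).

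The Ndufb genes encode accessory subunits of the membrane arm. In E10.5 microglia 4 of 9 were lower and 1 was higher than in YSM (all genes 9.51% lower and 10.05% higher). The other 4 did not pass the test, and the median of the 9 was -0.42. The one higher, Ndufb3, read 10.52, 10.51, 10.32 and 10.13 in YSM and 10.90, 11.10 and 11.08 at E10.5, higher in the brain on every array (0.66 ± 0.13, adjusted p = 0.00205). Ndufb4 read 8.98, 9.32, 9.26 and 8.69 in YSM and 7.98, 7.92 and 8.14 at E10.5, lower in the brain on every array (-1.05 ± 0.23, adjusted p = 0.00393).
Ndufb3 then fell to 10.23, 10.46 and 10.55 at E12.5 (-0.61 ± 0.14, adjusted p = 0.00275) and lay at 10.32, 10.13 and 10.17 at P0 and 10.25, 10.32 and 10.01 in adult, where the groups overlapped. Ndufb9 went from 9.25, 9.35 and 9.18 at E10.5 to 8.42, 8.56 and 8.80 at E12.5 without overlap (-0.67 ± 0.20, adjusted p = 0.0172), a call lost without E10.5 replicate 2 (adjusted p = 0.0627) or E12.5 replicate 1 (adjusted p = 0.0681).

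Ndufa4 was named for complex I and is now known as a subunit of complex IV. By its symbol it stays with complex I, not complex IV, in the counts and medians here. It read 13.06, 13.28 and 13.26 at E14.5, 12.40, 12.65 and 12.44 at E16.5, 12.42, 12.78 and 12.39 at P0 and 12.18, 12.16 and 11.33 in adult, so that neither the E14.5 and E16.5 arrays nor the P0 and adult arrays overlapped. It fell at E16.5 (-0.70 ± 0.17, adjusted p = 0.00405) and after birth (-0.64 ± 0.17, adjusted p = 0.00340). The second of these calls was lost with 75th-percentile scaling (-0.38, adjusted p = 0.208).

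Complex II, succinate dehydrogenase, is also an enzyme of the tricarboxylic acid (TCA) cycle, and its 3 members took different courses. The membrane anchor Sdhc read 11.64, 11.66 and 11.82 at E10.5, 11.99, 11.79 and 11.98 at P0 and 11.10, 11.03 and 11.18 in adult. Only the adult arrays were low, and the fall from P0 was -0.82 ± 0.10 (adjusted p = 2.13e-06). The other anchor, Sdhd, read 9.88, 10.11 and 9.47 at E10.5, 8.54, 8.68 and 8.50 at P0 and 8.53, 8.30 and 7.51 in adult, so P0 and adult overlapped (-0.46 ± 0.29, adjusted p = 0.189). From E10.5 to adult Sdhd fell by 1.71 on the log2 scale (SE 0.29, adjusted p = 2.24e-05). The iron-sulfur subunit Sdhb fell from 10.19, 10.10 and 10.26 at P0 to 9.69, 9.91 and 9.70 in adult (-0.42 ± 0.13, adjusted p = 0.0134), with no overlap, while another probe of it gave 0.09. The flavoprotein Sdha was detected on 0 arrays by its 1 probe, so a missing transcript and a probe that does not report it cannot be told apart.

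Complex III, the cytochrome bc1 complex, held 2 of the 4 members that rose. Its core subunits Uqcrc1 and Uqcrc2, its small subunits Uqcr10, Uqcr11 and Uqcrh, and the cytochrome c1 gene Cyc1 fell from P0 to adult, by 0.28 to 1.03 on the log2 scale. Uqcr10 read 14.39, 14.33 and 14.35 at E10.5, 13.48, 13.66 and 13.39 at P0 and 12.60, 12.58 and 12.26 in adult, 3 levels that did not overlap. It fell by 1.87 from E10.5 to adult (SE 0.12, adjusted p = 1.67e-11).

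The smallest swing in complex III belonged to Uqcrc2. It read 13.57, 13.70 and 13.48 at E10.5, 12.84, 12.93 and 12.99 at P0 and 12.66, 12.65 and 12.63 in adult, each stage below the one before. The last step was small (-0.28 ± 0.10, adjusted p = 0.0290) and its call was lost without 1 array for 5 of the 6 arrays compared (adjusted p = 0.0510 to 0.0944) and with 75th-percentile scaling (-0.04). Uqcrc1 rose at E16.5, from 11.63, 11.44 and 11.50 to 11.82, 12.07 and 11.99 (0.43 ± 0.14, adjusted p = 0.0218), without overlap. This call was lost without E14.5 replicate 2 or 3 or E16.5 replicate 2 or 3 (adjusted p = 0.0610 to 0.0806) and with 75th-percentile scaling (0.08).

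Uqcrq, a small subunit of complex III, went up and down between stages. It read 8.58, 8.0 and 9.06 at E10.5, 8.30, 10.02 and 9.38 at E12.5, 8.37, 8.49 and 8.63 at E14.5 and 10.58, 10.67 and 10.13 at E16.5. It then read 8.70, 9.02 and 7.64 at E18.5, 8.73, 8.78 and 9.33 at P0 and 10.43, 10.33 and 9.81 in adult. The arrays of E16.5 and of adult stood above those of E10.5, E14.5, E18.5 and P0 without overlap, and E12.5 was the most scattered group. It rose at E16.5 (1.97 ± 0.37, adjusted p = 0.000732), fell at E18.5 (-2.01 ± 0.37, adjusted p = 0.00625) and rose from P0 to adult (1.24 ± 0.37, adjusted p = 0.00794). The E18.5 call was lost when only these stages entered the fit (adjusted p = 0.0782).

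Uqcrfs1, the Rieske iron-sulfur subunit that hands electrons to cytochrome c1, was at the limit of detection, on 5 of 25 arrays. It read 4.93, 4.68 and 4.93 at E10.5, 5.06, 5.31 and 6.26 at P0 and 6.76, 6.48 and 6.01 in adult, with 0, 1 and 2 arrays detected. Adult lay above E10.5 on every array, at least 1.05-fold higher against the level of detection (adjusted p = 0.000106). This bound compares the adult mean with the higher of a probe's own value and the lowest detected signal on each undetected array, as for every "at least" here. Adult and P0 overlapped (0.87 ± 0.30, adjusted p = 0.0199), and that call was lost without either of P0 replicates 1 and 2 or adult replicates 1 and 2 (adjusted p = 0.0526 to 0.116).

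Cycs, the soluble carrier between complexes III and IV that also activates caspases when it leaves mitochondria, declined almost wholly before birth. It read 12.45, 12.38, 12.47 and 12.37 in YSM, 12.53, 12.74 and 12.40 at E10.5, 11.97, 11.90 and 11.88 at E12.5, 11.38, 11.43 and 11.58 at E14.5 and 11.00, 10.92 and 11.06 at E16.5. From E10.5 to E16.5 no stage overlapped the one before it. It lay at 10.93, 10.88 and 10.86 at E18.5, 10.79, 11.14 and 11.08 at P0 and 10.97, 10.87 and 10.52 in adult, where all groups overlapped.
The falls were -0.64 ± 0.12 at E12.5 (adjusted p = 0.000438) and -0.47 ± 0.12 at E16.5 (adjusted p = 0.00594), while P0 to adult gave -0.22 ± 0.12 (adjusted p = 0.128). At E16.5 another, dimmer probe gave 0.34. From E10.5 to adult the change was -1.77 ± 0.12 (adjusted p = 5.09e-11), and the other probes gave -0.87 and -1.65.

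Complex IV includes pairs of isoforms, of which one is general and the other is known from muscle, lung or testis. Among the general subunits, Cox4i1 read 14.22, 14.22 and 14.23 at E10.5, 14.01, 14.01 and 13.98 at P0 and 13.30, 13.23 and 12.86 in adult. The adult arrays were well below the rest (-0.87 ± 0.12 from P0, adjusted p = 6.53e-06). Cox6b1 read 13.47, 13.48 and 13.49 at P0 and 12.58, 12.41 and 12.37 in adult (-1.03 ± 0.12, adjusted p = 5.24e-07), again without overlap. Cox6a1 read 12.61, 12.62 and 12.68 at P0 and 11.54, 11.57 and 11.52 in adult (-1.09 ± 0.12, adjusted p = 2.58e-07), and its other probe changed in the same direction.

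Cox5a, a general subunit, had the largest fall from P0 to adult among members detected on all arrays. It read 13.77, 13.73 and 13.67 at E10.5, 12.81, 12.92 and 12.64 at P0 and 11.77, 11.72 and 11.06 in adult. These 3 groups did not overlap, and the falls were -1.27 ± 0.15 from P0 (adjusted p = 8.55e-07) and -2.20 ± 0.15 from E10.5 (adjusted p = 7.22e-11). Cox7b, a small subunit, read 9.47, 9.73, 9.77 and 9.13 in YSM, 8.53, 8.16 and 8.12 at E10.5 and 6.27, 6.05 and 4.99 in adult. It was lower at E10.5 than in YSM without overlap (-1.26 ± 0.26, adjusted p = 0.00228). The adult arrays were lower again, but only 1 of 3 detected it, so the size of that change is not given.

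The muscle isoforms Cox6a2 and Cox7a1 moved in opposite directions. Cox6a2 read 7.07, 6.91, 7.68 and 7.86 in YSM, 7.09, 7.52 and 7.24 at E10.5, 7.37, 8.09 and 7.93 at P0 and 9.48, 9.46 and 8.74 in adult. Its adult arrays were the highest, and it rose by 1.43 ± 0.26 from P0 (adjusted p = 0.000147) and 1.94 ± 0.26 from E10.5 (adjusted p = 1.61e-06). Cox7a1 read 8.64, 8.57 and 8.58 at E10.5, 7.41, 7.69 and 7.32 at E16.5, 7.75, 6.98 and 6.74 at P0 and 6.05, 5.79 and 5.13 in adult, where it was not well above background on any array. It was at least 2.02-fold lower in adult than at P0 (adjusted p = 4.32e-05) and at least 5.46-fold lower than at E10.5 (adjusted p = 1.60e-09). Of a list of 6 muscle and heart genes, Acta2 alone was measured. It read 8.15 to 11.80 in YSM, 6.68 to 7.80 at E10.5, 6.30 to 8.23 at P0 and 4.74 to 4.94 in adult, there below the lowest detected signals. Limma called it lower in adult than at P0 (adjusted p = 0.0244) and at E10.5 (adjusted p = 0.0132), and lower at E10.5 than in YSM (adjusted p = 0.0261). Its part in the members' changes was not tested.

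Cox4i2, the isoform of Cox4 known for its response to oxygen and its high level in lung, was a transcript of the yolk sac and the E10.5 brain. It read 8.30, 7.45, 8.24 and 8.53 in YSM, 6.88, 7.26 and 6.16 at E10.5 and 4.99, 4.70 and 5.17 at E12.5. No group overlapped the next, and from E12.5 on it was not well above background on any array. It was lower at E10.5 than in YSM (-1.37 ± 0.22, adjusted p = 0.000462) and at least 1.55-fold lower at E12.5 than at E10.5 (adjusted p = 1.53e-05). Cox4i2 was detected on 6 arrays, 4 of YSM and 2 of E10.5. It thus passed the filter only through the groups where it was high, so its falls were set in part by that filter. On E10.5 replicate 3 it read 6.16, under the lowest detected signal of that array (6.42), so the size of -1.37 is uncertain. In the comparison of YSM with the brain, 9 of 10 genes of yolk-sac endoderm and epithelium were lower in the brain (all genes 9.51% lower). The list averaged 5.72 to 10.85 on YSM and 4.91 to 6.67 on E10.5 arrays, and its part in the members' differences was not tested.

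Cox7a2l, a relative of Cox7a known to tether complexes III and IV to each other in supercomplexes, was higher at each stage up to E16.5. It read 10.03, 10.42, 9.72 and 9.97 in YSM, 10.60, 10.79 and 10.67 at E10.5, 11.24, 11.19 and 11.18 at E12.5 and 11.35, 11.27 and 11.41 at E14.5. It went on to 11.75, 11.94 and 11.78 at E16.5, 11.86, 11.72 and 11.95 at E18.5, 11.76, 11.65 and 11.83 at P0 and back to 11.18, 11.12 and 11.25 in adult. Every stage up to E16.5 lay above the one before without overlap, and adult lay below P0 and above E10.5.
The rises were 0.65 ± 0.12 against YSM (adjusted p = 0.00109), 0.52 ± 0.13 at E12.5 (adjusted p = 0.00451) and 0.48 ± 0.13 at E16.5 (adjusted p = 0.00802), and the fall after birth was -0.56 ± 0.13 (adjusted p = 0.00111). With 75th-percentile scaling the calls at E12.5 (0.23), E16.5 (0.13), adult against P0 (-0.37) and adult against E10.5 (0.01) were lost, and with only the groups compared in the fit that against YSM was lost (adjusted p = 0.0614).

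Cox7a2, the general isoform, fell at E12.5 and E16.5 and differed from YSM. It read 10.64, 10.63, 10.79 and 10.25 in YSM, 10.07, 10.02 and 9.94 at E10.5, 9.15, 9.41 and 9.33 at E14.5, 8.51, 8.74 and 8.70 at E16.5, 8.44, 8.47 and 8.20 at P0 and 8.45, 7.99 and 7.39 in adult. Of these groups only P0 and adult overlapped (-0.43 ± 0.19, adjusted p = 0.0655). Cox6b2, the testis isoform, was detected on 17 arrays, on all 3 at E10.5 (6.48, 6.69 and 6.70) and on none in adult (5.39, 5.45 and 5.07), at least 1.39-fold lower (adjusted p = 5.56e-05). Cox7b2, Cox8b and Cox8c were detected on 0 arrays.

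**Figure D4:**
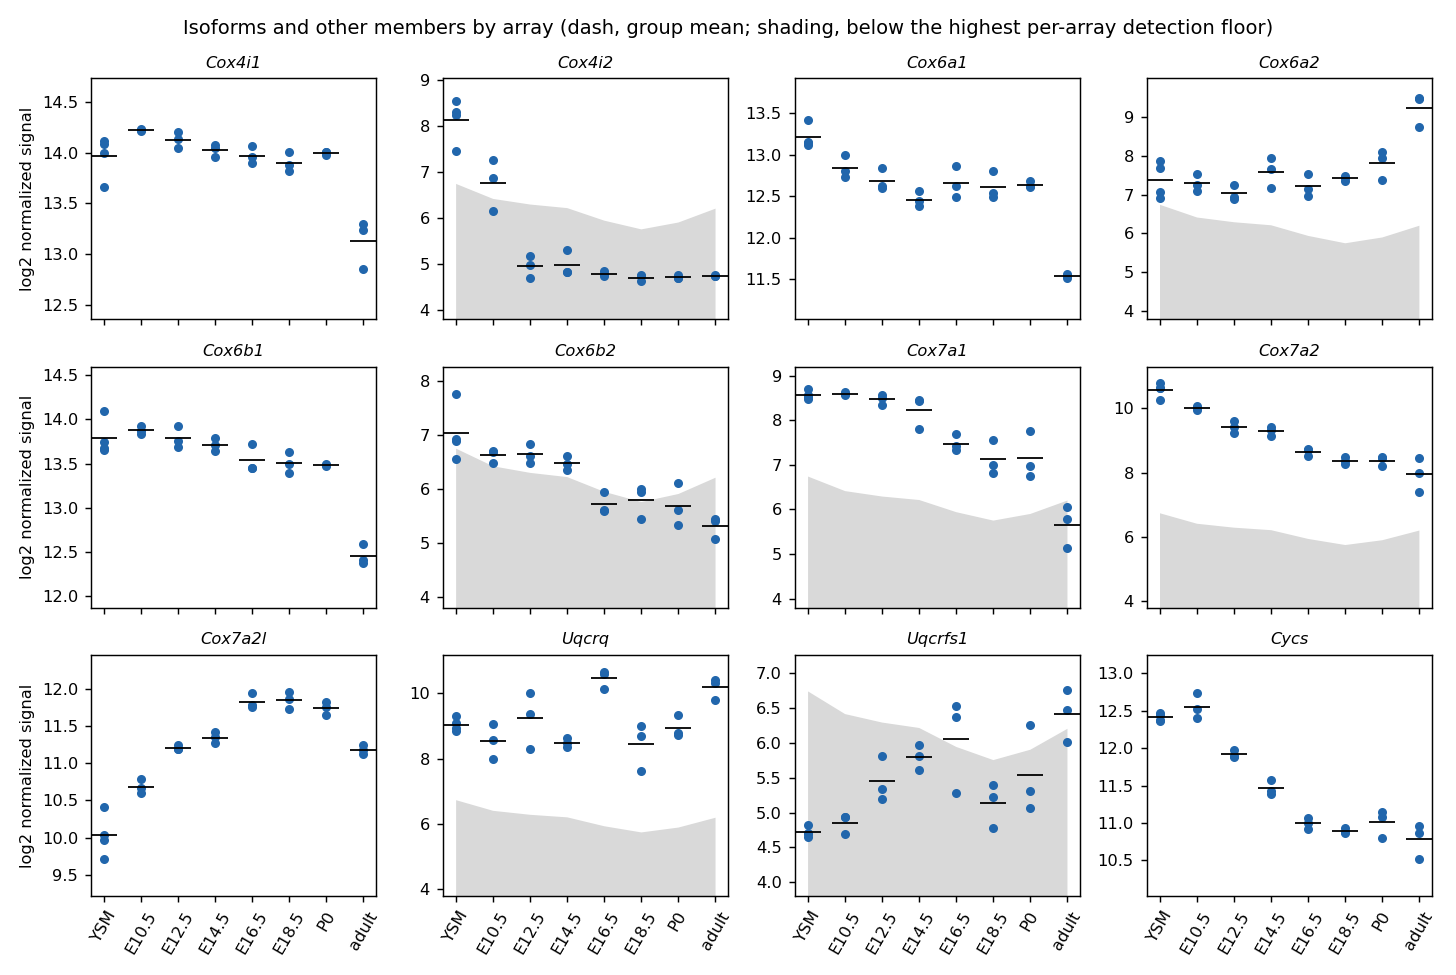
Log2 normalized signal (y axis, a scale of its own in each panel) on each array (points) by group (x axis) for complex IV isoforms, Uqcrq, Uqcrfs1 and Cycs, with dashes at group means and shading below the highest detection floor of the group's arrays. Cox4i2 lies in the shading from E12.5 on and Cox7a1 in adult (5.13 to 6.05), while Cox6a2 is highest in adult (8.74 to 9.48).

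Complex V joins a catalytic head, a stalk and a rotor of c subunits. All 16 members were lower in adult than at E10.5, and 13 of 16 fell from P0 to adult, with a median of -0.81. Of all genes, 35.6% were called lower from E10.5 to adult and 26.9% from P0 to adult. Atp5b, the catalytic beta subunit, read 15.60, 15.73 and 15.40 at E10.5, 14.83, 14.92 and 14.90 at P0 and 14.11, 14.19 and 14.22 in adult. The groups did not overlap (-1.41 ± 0.11 from E10.5 to adult, adjusted p = 5.55e-10).

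The 2 measured genes for the c subunit behaved differently. Atp5g3 read 15.42, 15.43 and 15.37 at E10.5, 14.87, 15.08 and 14.97 at E14.5, 14.13, 14.25 and 14.20 at E16.5, 14.15, 14.40 and 14.23 at P0 and 13.56, 13.65 and 12.84 in adult. It fell at E16.5 (-0.78 ± 0.15, adjusted p = 0.000788) and after birth (-0.91 ± 0.15, adjusted p = 3.44e-05), without overlap in either step. Atp5g2 read 11.54, 11.69 and 11.68 at E10.5, 11.50, 11.35 and 11.32 at E14.5, 11.73, 11.95 and 11.72 at E16.5, 11.59, 11.59 and 11.79 at P0 and 10.57, 10.75 and 10.67 in adult. It rose at E16.5 (0.41 ± 0.11, adjusted p = 0.00969) and fell after birth (-0.99 ± 0.11, adjusted p = 4.59e-07), and only its adult arrays were low.

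For the alpha subunit Atp5a1 the probes disagreed. The probe used read 12.49, 12.73, 12.95 and 12.23 in YSM, 11.90, 11.80 and 11.55 at E10.5, 10.92, 11.00 and 11.31 at E12.5, 10.42, 10.54 and 10.29 at P0 and 10.45, 10.05 and 9.54 in adult. It fell at E12.5 without overlap (-0.67 ± 0.20, adjusted p = 0.0129), where the other probe gave 0.64, and from E10.5 to adult (-1.74 ± 0.20, adjusted p = 1.17e-07), where the other gave 1.35. The mean of both probes lost these calls (-0.02, adjusted p = 0.963, and -0.19, adjusted p = 0.392), and leaving out E10.5 replicate 1 or E12.5 replicate 1 lost the first (adjusted p = 0.0585 and 0.0531).

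Atp5pb, the b subunit of the stalk, read 10.70, 10.97, 9.96 and 10.34 in YSM and 11.46, 11.49 and 11.30 at E10.5. It was higher in the brain on every array (0.92 ± 0.18, adjusted p = 0.00155), though its other probes gave -0.69 to 1.14 and the call was lost with only these groups in the fit (adjusted p = 0.0566). Atp5k, the e subunit, was detected on 12 arrays and read 5.22, 5.17 and 5.68 at E18.5 (0 detected), 6.17, 7.27 and 6.54 at P0 (3 detected) and 5.08, 4.74 and 5.06 in adult (0 detected).
The P0 arrays of Atp5k stood above both neighbours, at least 1.94-fold above E18.5 (adjusted p = 0.0467) and at least 1.43-fold above adult (adjusted p = 7.13e-06). The first call was lost without E18.5 replicate 1, 2 or 3 or P0 replicate 2 or 3 (adjusted p = 0.0611 to 0.417), and another probe gave 0.10. Atp5md, a small subunit, fell from 6.85, 7.62 and 7.36 at E14.5 to 6.19, 6.83 and 6.17 at E16.5 (-0.88 ± 0.25, adjusted p = 0.0109), a call lost without E14.5 replicate 2 (adjusted p = 0.0647).

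**Figure D5:**
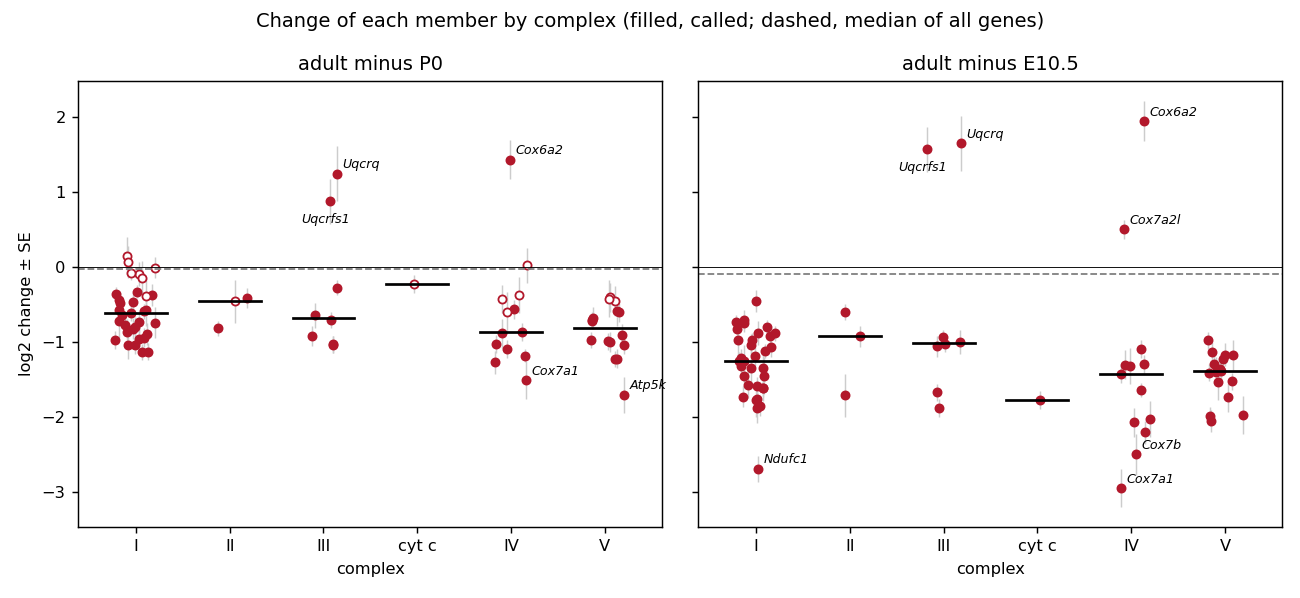
Log2 change (y axis) ± SE (grey lines) of each member by complex (x axis) from P0 to adult (left) and from E10.5 to adult (right). Filled points are called, bars mark the median of a complex and the dashed line the median of all genes. On the right all points lie below 0 except those of Uqcrq, Uqcrfs1, Cox6a2 and Cox7a2l.

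The members also differed in when they declined. For each of the 70 members lower in adult than at E10.5, the share of that fall already present at P0 was taken from the group means. Its median was 44.8%, and it ran from -36% to 111%. By complex the median was 48.2% for I, 54.8% for II, 36.7% for III, 42.4% for IV and 41.8% for V. The share was over 75% for 12 members, among them Cycs (87.5%), Ndufv1 (89.8%), Ndufb10 (89.7%) and Ndufb3 (98.6%). It was under 25% for 16, among them Ndufa11 (9.91%), Atp5d (10.2%), Cox6a1 (15.7%) and Cox4i1 (20.9%), which fell mostly after birth. Of the 70, 23 were called lower both in an embryonic step and from P0 to adult, 12 in an embryonic step only, 31 from P0 to adult only and 4 in neither. No such share or count was taken over all genes, so early or late timing is not shown to be particular to the members. Of all genes, 16.2% were called lower at E12.5, 19.95% at E16.5 and 26.9% from P0 to adult. The 12 members over 75% include Cox4i2 (101%), not well above background from E12.5 on, and Cox7b (75.85%), detected on 1 adult array. They also include Atp5a1 (76.68%), whose probes disagreed. Of the late members, Ndufa11, an accessory subunit, read 10.73, 10.70 and 10.74 at E10.5, 10.49, 10.65 and 10.65 at P0 and 9.56, 9.38 and 9.47 in adult. Atp5d, the delta subunit of the ATP synthase head, read 11.42, 11.65 and 11.61 at E10.5, 11.46, 11.33 and 11.47 at P0 and 10.33, 10.22 and 10.04 in adult. In both genes the adult arrays alone stood low.

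Other probes bear on how far single calls can be read, since 23 members had over 1 kept probe. From E10.5 to adult all 23 were called, and 1 (Atp5a1) had a probe that moved the other way. From P0 to adult 2 of 19 called members had such a probe (Sdhb and Atp5pb). At E16.5 it was 2 of 8, at E12.5 1 of 8, and in the comparison with YSM 4 of 6 (Ndufb10, Ndufs4, Cox6a1 and Atp5pb).

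Genes that work beside the chain are given against the 35.6% of all genes called lower and 30.6% called higher from E10.5 to adult. In that comparison 12 of 15 measured genes of pyruvate dehydrogenase and the TCA cycle fell and 0 rose, with a median of -1.08. The largest falls were those of fumarase (Fh1, -1.96), malate dehydrogenase (Mdh2, -1.78) and the E1 alpha subunit of pyruvate dehydrogenase (Pdha1, -1.37). Of 12 carriers and porins 10 fell and 0 rose (median -1.13), led by the dicarboxylate carrier Slc25a10 (-2.08) and the aspartate-glutamate carrier Slc25a13 (-2.02), and the porin Vdac1 also fell (-1.44). Of 41 assembly factors, which build the complexes without staying in them, 31 fell and 2 rose (median -0.80), and Fmc1 (-2.27), an assembly factor of ATP synthase, and Ndufaf2 (-1.79), one of complex I, fell most. Of 17 genes of mitochondrial biogenesis and of mitochondrial DNA expression 3 fell and 4 rose (median 0.12), with the methyltransferase Tfb1m at -1.82, the nuclear receptor Esrra at 0.69 and Mterf3 at 1.00.

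Over the last step, from P0 to adult, the TCA genes gave 6 lower and 2 higher (median -0.29) and the carriers 5 lower and 1 higher (median -0.35), while the assembly factors gave 7 lower and 10 higher (median 0.06) and the biogenesis genes 0 lower and 8 higher (median 0.44), among them Polg2 (0.94), an accessory subunit of the mitochondrial DNA polymerase. The subunits themselves gave 55 lower and 3 higher in that step, in which 26.9% of all genes were called lower and 24.2% higher. Differences between these lists were not tested.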

How the data were processed

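The authors deposited raw linear intensity values from GenomeStudio, each beside a detection p-value that sets the probe against the negative controls of its array. A second set of intensity values that the authors normalized by quantiles in lumi served here as an alternative. The submitters' processing notes name both tools, with no version. Columns give the stage but not the labels' numbers, so replicate numbers here only name arrays in column order, and each YSM column carries a date of its own.

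Signals were corrected with limma's normal-exponential model (background from the detection p-values, offset 16), quantile-normalized and taken as log2. The platform annotation gave 1 symbol to 34885 of 45281 probes, several to 18 and none to 10378. Probes were kept if 3 or more arrays had a detection p under 0.01 (19789), and each gene was read from its brightest kept probe with 1 symbol (10630 genes). The number of arrays limits the precision. The 25 distinct arrays entered a single fit by lmFit and eBayes with 17 residual degrees of freedom (limma 3.58.1 and R 4.3.3, with version 1.17.8 of data.table), which was also tested on simulated data. There were 8 comparisons and the moderated F test, adjusted by Benjamini-Hochberg within each.

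The members and gene lists were chosen with earlier results of these data known. Named are, per comparison, up to 3 called members with the largest rise and up to 3 with the largest fall among non-overlapping groups, the isoform sets, Cycs, the largest and smallest swings per complex and undetected members. Ndufa11, Atp5b, Atp5d and Sdhb were added after their values were seen. Ndufb11 was detected on 1 array and Ndufs1 on 0, and Atp5g1, Cox8a, Ndufa4l2 and the subunits encoded by mitochondrial DNA were not analysed here. Ndufs1, like Sdha, had 1 probe, and its lack of signal need not mean a missing transcript. Alternatives were other normalizations, filters, probe rules, fits and leaving out each array.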

Additional observations from a re-analysis of the deposited data

Results flagged for a closer look

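Within YSM, the only group of 4 arrays, 39 sets of 4 values were examined, and 2 held a value far from the other 3 by Dixon's criterion, which chance exceeds in about 1 of 20 groups. Cox6a1 was 13.41 on YSM replicate 4, the array with the fewest detected probes, against 13.12 to 13.16 on the other YSM arrays. Atp5g3 was 15.47 on YSM replicate 2 against the same value, 15.43, on each of the others. Quantile normalization gives probes of equal rank the same value. This closeness therefore need not measure the spread between pools, and the flag carries little weight.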

How the results depend on the processing

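No change of direction was seen for a called member or a count under any alternative run. For single named changes, 700 of 736 values under other settings and 459 of 498 values with 1 array left out kept their side of the threshold. With quantile normalization but no background correction, 1 member was called at E14.5 and 0 at P0, and the median from E10.5 to adult was -1.14. The authors' normalized table gave 1, 0 and -1.12 for the same. With 75th-percentile scaling, 48 were called at E12.5 (median -0.57) and 40 at E16.5 (median -0.51), and the medians were -0.49 from P0 to adult and -1.75 from E10.5 to adult. No filter on detection gave 0 members at P0, as did the 66 members detected on all arrays (chosen after seeing the data). The mean of all probes gave 2 at E18.5 and 0 at P0, an intensity trend gave 1 at E14.5 and 0 at P0, and fitting only the groups compared gave 11 at E10.5 against YSM, 0 at E18.5 and 0 at P0. The cause of these shifts was not tested. Leaving out 1 array at a time gave 73 to 74 members over stages, 12 to 19 against YSM (median -0.01 to 0.04), 13 to 20 at E12.5 (-0.27 to -0.21), 0 to 1 at E14.5 (-0.17 to -0.12), 11 to 22 at E16.5 (-0.26 to -0.13), 1 to 2 at E18.5 (-0.13 to -0.01), 0 to 1 at P0 (0.02 to 0.08), 53 to 61 from P0 to adult (-0.76 to -0.59) and 73 to 74 from E10.5 to adult (-1.40 to -1.20). Array numbers of the labels share only a number: same-numbered arrays correlated in their deviations at a median of -0.007 over 77 pairs, against -0.003 over 196 others, and 6 of 25 arrays correlated best with their own number. With the replicate block, fitted on the authors' table, 32 were called at E12.5, 2 at E14.5 and 0 at P0, and the medians were -0.55 from P0 to adult and -1.08 from E10.5 to adult. Without the block that table gave 24, 1, 0, -0.62 and -1.12. Dim members such as Cox4i2, Uqcrfs1 and Atp5k carry only bounds in groups below background.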
